A study of Mus musculus with 90 samples.

Results

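CBX7-mCaPS cells and CBX7 KO cells were compared on day 6 of neural differentiation. Both lines derive from J1 mouse embryonic stem cells, a male line. The labels give the genotypes CBX7-mCaPS and CBX7 KO. In CBX7-mCaPS, as the published work describes the line, a mutated form of the compaction and phase separation domain of CBX2 sits in CBX7. CBX7 KO is labelled as a knockout of CBX7. Both lines were freed of feeder cells, grown as floating aggregates without LIF for 4 days, given 5 uM retinoic acid and collected on day 6, 2 days after retinoic acid. RNA was sequenced after depletion of ribosomal RNA. The comparison holds 3 libraries of each line, 6 of the 90 in the series, and pairs them by their replicate number, which the labels give as 1 to 3 in each line. Libraries of the unmodified line (WT) and of CBX7-CaPS, which carries the unmutated domain, on the same day are given as a description only. The labels do not say whether libraries came from separate cultures or how many clones a line stands for, so the spread may be technical, and a difference of the genotype cannot be told apart from a difference of the clone. In such bulk samples, fewer cells of a type and less RNA per cell cannot be told apart either. Genes of chromosome 8 are reported apart.

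CBX7 is a subunit of canonical Polycomb repressive complex 1 (PRC1). It binds histone H3 methylated by Polycomb repressive complex 2 (PRC2) and helps to keep developmental genes silent in stem cells. CBX2, its relative of committed cells, can compact nucleosomes through a positively charged region. Retinoic acid turns aggregates of stem cells into neural progenitors, which express Sox1, Sox2, Pax6 and Nes, while BMP signals and low retinoic acid favour mesoderm, endoderm and surface ectoderm.

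Compared with KO, mCaPS aggregates on day 6 held less RNA of neural progenitor and patterning genes and more of heart, vessel, endoderm and simple epithelial genes. Among 24 neuronal genes 15 were lower, though the summed RNA of the 24 overlapped between the lines. Of 15964 genes tested, 3716 (23.3%) passed an adjusted p of 0.05, 1941 higher (12.2%) and 1775 lower (11.1%) in mCaPS. Outside chromosome 8, 1908 of 15115 genes rose (12.6%) and 1339 fell (8.86%). On chromosome 8, 33 of 848 genes rose (3.89%) and 436 fell (51.4%), 55.3% in all. The 3 libraries of one line lay wholly above or below those of the other for 44.3% of all genes, 42.9% of those outside chromosome 8 and 68.4% of those on it. The test was edgeR's quasi-likelihood test with the replicate number as a block and Benjamini-Hochberg adjustment, and 6250 genes had an unadjusted p below 0.05. The number of calls depends on single pairs: 526 genes passed without pair 1, 4802 without pair 2 and 138 without pair 3. A fit of all 36 neural libraries, which estimates the spread over all lines and days, called 732 genes, 698 of them also called here.

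**Figure D1:**
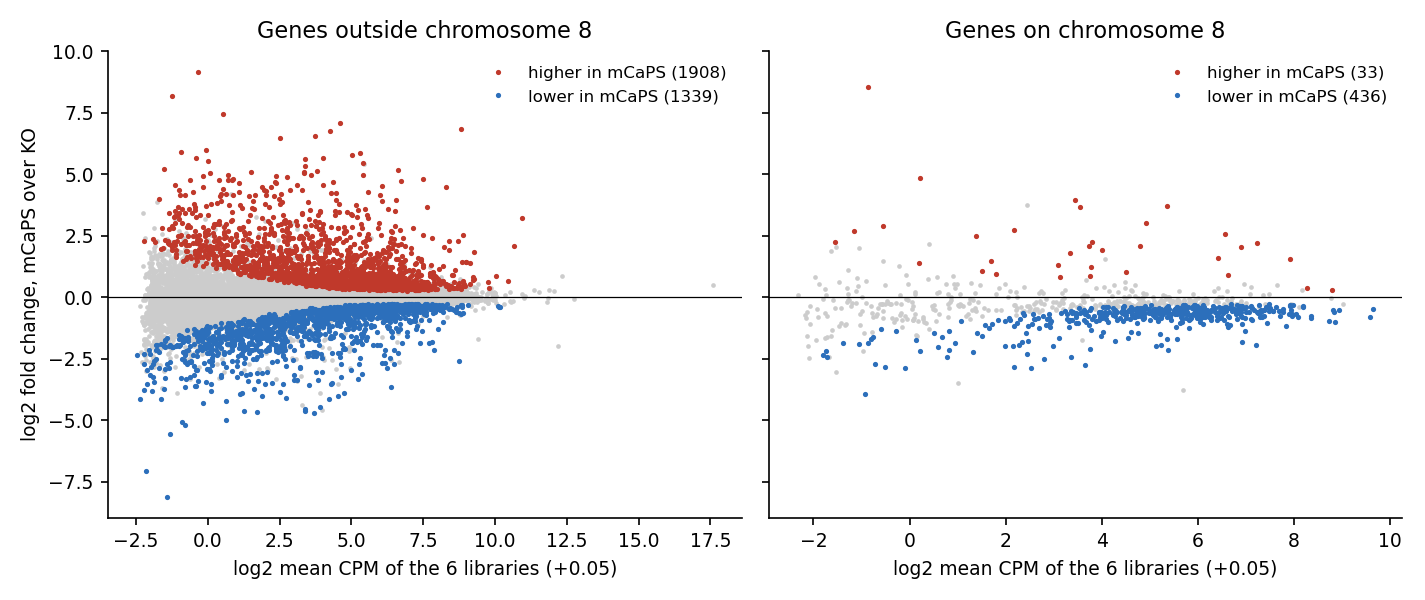
Each point is a tested gene, with its log2 fold change of mCaPS over KO (vertical) against its log2 mean CPM over the 6 libraries (horizontal). Red and blue points passed an adjusted p of 0.05. Outside chromosome 8 the 1908 higher and 1339 lower genes lie on both sides of 0, while on chromosome 8 a band of 436 lower genes lies below 0.

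Library totals were 39469650 to 55692090 counts in mCaPS and 38875796 to 50299406 counts in KO. The ribosomal precursor transcript Rn45s accounted for 18% to 25.8% of all counts in mCaPS and 7.86% to 27.3% in KO, the lowest in KO replicate 1. Levels are given as CPM, counts scaled to library size, after TMM scaling over the 36 neural libraries. Cbx7 RNA was 15.6, 27.1 and 15.0 CPM in mCaPS replicates 1 to 3 and 27.9, 35.0 and 32.9 CPM in KO. WT had 60.4, 27.2 and 32.2 CPM, a range that holds all the KO libraries. Cbx7 was thus not below WT in the libraries labelled KO, and it was lower in every mCaPS library than in any of them (log2 fold change -0.79 ± 0.16, SE, n = 3 pairs, adjusted p = 0.0208, lost without pair 1 or 3 and without the block). Counts over the whole gene do not show whether its protein is made, so they do not check the knockout. Cbx2 had 87.9 to 105 CPM in mCaPS and 79.8 to 89.9 CPM in KO (0.18 ± 0.10, adjusted p = 0.237).

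Replicate 2 of mCaPS stood between the other mCaPS libraries and KO. Of the 1904 genes that rose outside chromosomes 8 and Y, 1373 had their smallest difference in pair 2, as had 955 of the 1339 that fell. Their median differences were 0.81, 0.49 and 0.74 in pairs 1 to 3 for the higher genes and -0.65, -0.43 and -0.68 for the lower ones, on log2(CPM + 2). Whether this library held more neural cells was not tested apart from the marker levels given below.

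Neural progenitor genes were lower in mCaPS. Of 20 tested, 8 fell and none rose, with a median log2 fold change of -1.71 against -0.01 over all genes tested. The 8 were 40% of the list, and 11.1% of all genes tested fell. Their summed level was 753 to 1050 CPM in mCaPS, 1850 to 1890 CPM in KO and 1690 to 2460 CPM in WT, so the mCaPS libraries lay below all others of these 3 lines. Pou3f2, a POU factor of neural progenitors, had 2.13, 10.5 and 1.32 CPM in mCaPS against 60.5, 38.1 and 48.4 CPM in KO. The groups did not overlap, and mCaPS replicate 2 was the nearest to KO (-3.90 ± 0.84, adjusted p = 0.0430). Nes, the intermediate filament nestin, had 109, 117 and 69.2 CPM against 301, 212 and 243 CPM (-1.39 ± 0.19, adjusted p = 0.0125). The RNA-binding protein gene Msi1 (-1.28 ± 0.11), N-cadherin Cdh2 (-0.97 ± 0.09), Pou3f3 (-3.57 ± 0.35), Sox21 (-2.21 ± 0.54), Notch1 (-0.84 ± 0.10) and Zbtb16 (-1.09 ± 0.24) completed the 8 that fell.

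The SOX and PAX factors that define the progenitor state did not pass the test, although no mCaPS library reached a KO library. Sox1 had 2.84, 34.9 and 2.49 CPM in mCaPS and 78.6, 103 and 86.9 CPM in KO (adjusted p = 0.0553). Sox2 had 10.4, 74.3 and 16.0 CPM against 110, 148 and 144 CPM (adjusted p = 0.0509). Pax6 had 19.2, 92.0 and 10.1 CPM against 167, 155 and 158 CPM (adjusted p = 0.0769). In all 3 genes mCaPS replicate 2 was several times above the other mCaPS libraries and still below each KO library. Without pair 2, 15 genes of the list fell and 1 rose. Without pair 1 or pair 3, 3 and 1 fell. The blocked fit of the 12 libraries of day 6 left 4 and the fit of 36 libraries 1.

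**Figure D2:**
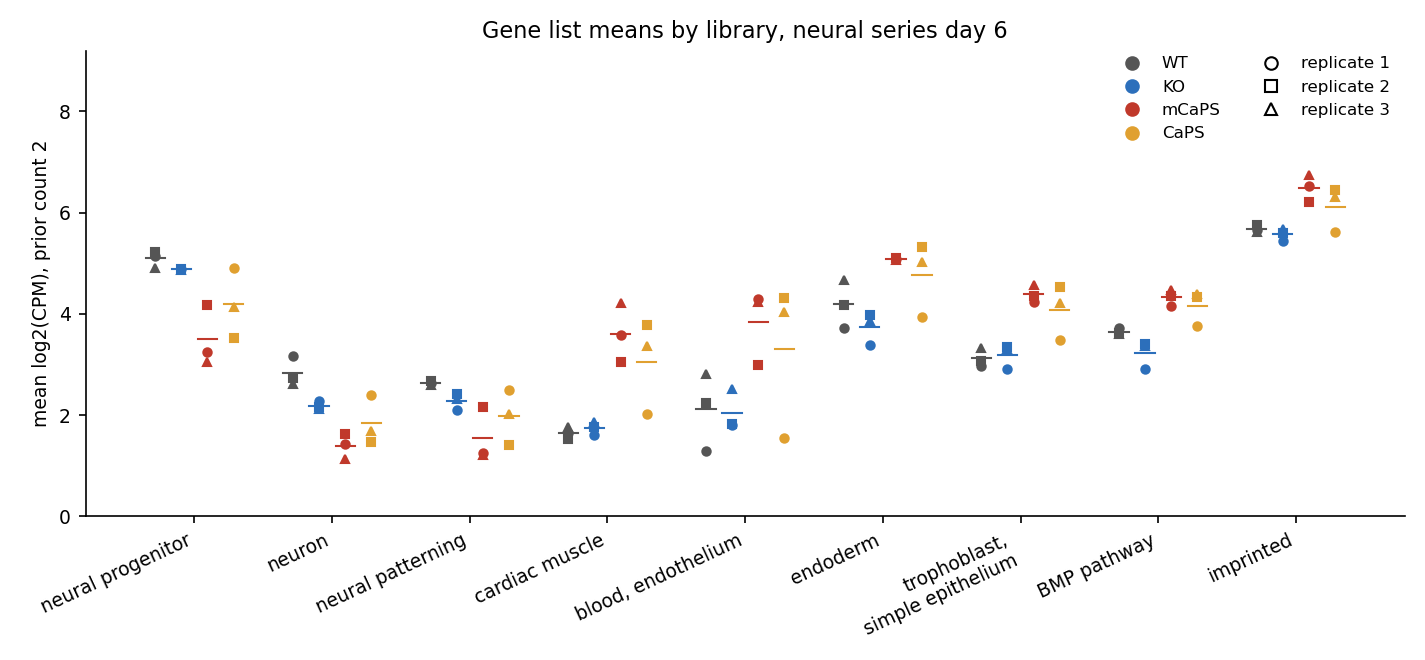
Each point is a library of day 6 (symbol by replicate number), at the mean log2(CPM + 1) of the genes of a list (vertical), and each short line is the mean of 3 libraries. The axis label names a prior count of 2, but 1 CPM was added. The mCaPS libraries lie at 3.05 to 4.18 for neural progenitor genes, below the KO libraries at 4.87 to 4.88, and at 3.04 to 4.21 for cardiac muscle genes, above the KO libraries at 1.61 to 1.86.

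Of 24 neuronal genes, 15 fell, Tubb3 on chromosome 8 among them, and 1, Isl1, rose (median -1.83). In all, 66.7% passed, against 23.3% of all genes tested. The summed level of the list overlapped, with 134, 95.8 and 71 CPM in mCaPS against 118, 116 and 112 CPM in KO. WT had 166 to 291 CPM, above every library of both lines. Isl1 is also a heart field gene and sits on the cardiac list too. Proneural factors that fell were Neurog1 (5.21 to 5.75 CPM in KO and 0.102 to 1.13 CPM in mCaPS, -3.76 ± 0.68), Neurod1 (-3.16 ± 0.57), Nhlh1 (-2.64 ± 0.46) and Nhlh2 (-3.44 ± 0.83). Neurod4 and St18 were at 0.717 to 1.51 CPM and 0.633 to 1.14 CPM in KO and at 0 to 0.0427 CPM in mCaPS, a level of at most a few reads. The neurofilament and cytoskeleton genes Nefm (-2.94 ± 0.44), Ina (-2.62 ± 0.35) and Map2 (-1.28 ± 0.18) and the RNA-binding Elavl3 (-2.20 ± 0.44) and Elavl4 (-1.37 ± 0.26) fell as well. Dcx, a marker of young neurons, was at 2.22 to 3.84 CPM in KO and 1.24 to 7.15 CPM in mCaPS (adjusted p = 0.733). Without pair 2, 17 neuronal genes fell, without pair 1 only 2 and without pair 3 none, while the fits of 12 and 36 libraries left 7 and 2.

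Transcription factors that pattern the neural tube followed the same direction, with 9 of 22 lower and 2 higher (median -1.02). Together these were 50% of the list, against 23.3% of all genes tested. Pax7, a factor of the dorsal neural tube (chromosome 4, 139738081 to 139832968, minus strand, mm10), had 0.507, 2.03 and 0.356 CPM in mCaPS and 23.6, 13.3 and 22.2 CPM in KO. All mCaPS libraries were below all KO libraries (-4.57 ± 0.79, adjusted p = 0.0269). Pax3, its close relative, had 1.20, 9.39 and 1.30 CPM against 43.1, 40.3 and 44.8 CPM (-4.04 ± 0.81, adjusted p = 0.0371). Pax2 (-3.42 ± 0.36), Pax5 (-2.98 ± 0.51), the midbrain factor En2 (-2.0 ± 0.44), Lmx1b (-1.75 ± 0.41) and the interneuron factor Dbx1 (-3.13 ± 0.71) fell too. The higher members were Msx2 (1.17 ± 0.19), a target of BMP signals, and Nkx6-2 (1.64 ± 0.40), the latter at 0.407 to 2.48 CPM in mCaPS and 0.204 to 0.628 CPM in KO, groups that overlapped. Irx3 and Irx5, the other 2 of the 9, lie on chromosome 8. Leaving out pairs 1, 2 and 3 gave 3, 12 and 1 lower members, and the fits of 12 and 36 libraries 4 and 2.

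Among the 15 most lowered genes outside chromosome 8 were further neural transcripts. The long noncoding RNAs Sox2ot (-4.25 ± 0.43), Miat (-4.16 ± 0.78) and Pantr1 (-3.90 ± 0.40), the host transcript of the neuronal microRNA miR-124, Mir124-2hg (-4.46 ± 0.88), the zinc finger gene Zfp536 (-4.10 ± 0.58), the Hes family gene Hes3 (-4.01 ± 0.90), Cdk5r2 (-3.93 ± 0.58) and Fez1 (-3.86 ± 0.56) belonged to them. Hk3, a hexokinase, had the lowest fold change of the 15, with 0.727, 1.99 and 0.407 CPM in mCaPS against 31.7, 19 and 23.8 CPM in KO (-4.73 ± 0.62, adjusted p = 0.0155). Vit, a matrix gene, had 0.507, 1.88 and 0.407 CPM against 26.5, 15.2 and 18.1 CPM (-4.61 ± 0.68). Fam181a (3.41 to 5.92 CPM in KO) and Xkr7 (1.39 to 2.33 CPM) were below 1 CPM in every mCaPS library. Each of the genes listed here lost its call without pair 3, and all but Sox2ot, Pantr1 and Xkr7 also without pair 1. Mir124-2hg, Hes3 and Fam181a lost it in 5 of 16 alternatives, the fits of 12 and 36 libraries among them. Sox2ot spans the Sox2 gene, so some reads of either could have been counted for the other.

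Heart genes showed the opposite pattern. Of 20 cardiac muscle genes, 12 rose (60%, against 12.2% of all genes tested), Hand2 on chromosome 8 among them. None fell, and the median of the cardiac genes was 2.70. Their summed level was 330 to 1100 CPM in mCaPS, 88.2 to 111 CPM in KO and 81.3 to 194 CPM in WT. Hand1, a bHLH factor of heart, extraembryonic mesoderm and trophoblast (chromosome 11, 57828713 to 57832147, minus strand), had 36.1, 16.8 and 92.9 CPM in mCaPS and 0.163, 0.377 and 0.380 CPM in KO. The lowest mCaPS library lay far above the highest KO library (7.09 ± 0.52, adjusted p = 0.00474, lost without pair 1). Tbx20, a T-box factor of the heart, had 84.2, 26.1 and 138 CPM against 1.88, 1.80 and 3.08 CPM (4.97 ± 0.41, adjusted p = 0.00686). Gata4, which drives heart and endoderm genes, had 380, 158 and 505 CPM against 8.49, 11.1 and 14.6 CPM (4.80 ± 0.40, adjusted p = 0.00716). In all 3 genes mCaPS replicate 3 was the highest and replicate 2 the lowest.

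Early sarcomere genes were included in the rise. Tnni1, the slow troponin I of embryonic heart, had 23.2, 6.34 and 29.2 CPM in mCaPS against 0.490, 0.293 and 0.844 CPM in KO (5.08 ± 0.25, adjusted p = 0.000781). The atrial light chains Myl7 (3.85 ± 0.26) and Myl4 (4.14 ± 0.38), Tnnt2 (3.92 ± 0.59), Tnnc1 (1.59 ± 0.34) and the factors Tbx5 (4.88 ± 0.40) and Mef2c (3.41 ± 0.32) rose too. Not every heart gene passed: Myh6, a heavy chain of cardiac myosin, was at 0.744 to 2.97 CPM in mCaPS and 2.05 to 2.33 CPM in KO, and the heart factor Nkx2-5 was below 1 CPM in every library. The primitive streak genes T, Mixl1 and Mesp1 were below 1 CPM in all 6 libraries, and of 13 tested streak and early mesoderm genes 1, Foxc1, rose and 1, Pax3, fell. Leaving out pairs 1, 2 and 3 left 5, 13 and 3 cardiac genes higher, and without pair 2 another 2 were lower.

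Promoters of 4 genes described above, 2 that rose and 2 that fell, are shown as the 250 bases before the annotated start, with CG, the dinucleotide that CpG island promoters of Polycomb targets hold in number, in capitals (RefSeq, GRCm38.p6, 5′ to 3′ on the gene's strand). They are Tbx20 at chr9:24774304-24774553 (minus), Myl4 at chr11:104550413-104550662 (plus), Pax7 at chr4:139832969-139833218 (minus) and Pou3f2 at chr4:22488367-22488616 (minus).
Tbx20: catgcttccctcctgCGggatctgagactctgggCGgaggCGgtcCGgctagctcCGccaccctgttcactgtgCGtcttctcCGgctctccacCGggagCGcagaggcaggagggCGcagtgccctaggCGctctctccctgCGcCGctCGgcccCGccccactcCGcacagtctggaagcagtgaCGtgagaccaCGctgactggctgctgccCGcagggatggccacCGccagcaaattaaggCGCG
Myl4: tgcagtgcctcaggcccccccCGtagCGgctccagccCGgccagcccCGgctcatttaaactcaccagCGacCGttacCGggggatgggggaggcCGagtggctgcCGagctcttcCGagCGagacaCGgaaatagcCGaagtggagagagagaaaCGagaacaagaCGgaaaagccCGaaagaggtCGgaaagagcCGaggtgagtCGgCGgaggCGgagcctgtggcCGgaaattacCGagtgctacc
Pax7: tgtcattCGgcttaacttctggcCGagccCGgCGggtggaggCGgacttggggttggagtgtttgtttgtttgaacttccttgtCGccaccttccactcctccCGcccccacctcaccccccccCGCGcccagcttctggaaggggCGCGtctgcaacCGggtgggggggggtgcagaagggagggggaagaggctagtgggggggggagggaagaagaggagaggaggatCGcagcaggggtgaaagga
Pou3f2: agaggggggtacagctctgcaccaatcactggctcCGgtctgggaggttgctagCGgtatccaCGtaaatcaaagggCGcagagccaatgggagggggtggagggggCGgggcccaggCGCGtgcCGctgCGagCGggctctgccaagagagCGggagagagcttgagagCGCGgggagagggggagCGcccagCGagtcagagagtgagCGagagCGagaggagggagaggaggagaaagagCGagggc
These windows hold 22, 23, 13 and 18 CG. Promoters were matched by symbol for 11631 of the 15115 genes tested outside chromosome 8, with the first window taken where a gene had several. The median number of CG in 250 bases was 15 over these, 14 for the 1423 matched genes that rose and 16 for the 1022 that fell. By list it was 5 for the 16 matched cardiac genes, 3 for 11 blood and endothelial genes, 17 for 15 neural progenitor genes and 20 for 15 neuronal genes. The GATA motif AGATAA, searched on both strands (TTATCT on the other), stood in 6.06% of all matched promoters, 7.03% of those that rose and 4.99% of those that fell, and in none of the 4 shown.

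Blood and endothelial genes rose in 11 of 16 cases (68.8%, against 12.2% of all genes tested), with none lower and a median of 1.59. Kdr, the VEGF receptor of endothelial precursors, had 134, 52.4 and 136 CPM in mCaPS against 12.1, 8.46 and 25.1 CPM in KO (2.83 ± 0.22, adjusted p = 0.00409). The angiopoietin receptor Tek (2.42 ± 0.17), Gata2 (1.60 ± 0.19), Lmo2 (1.11 ± 0.23), Tal1 (1.09 ± 0.30), Flt1 (1.23 ± 0.21), Esam (1.59 ± 0.22) and Pecam1 (1.15 ± 0.16) rose as well, as did Cdh5 on chromosome 8. Embryonic globins varied widely among the mCaPS libraries: Hbb-bh1 had 125, 6.66 and 102 CPM in mCaPS and 0.653, 0.502 and 2.19 CPM in KO (5.84 ± 0.77, adjusted p = 0.0162). Hbb-y had 62.6, 2.88 and 28.6 CPM against 0.326, 0.126 and 1.20 CPM (5.65 ± 0.73, adjusted p = 0.0155). The groups did not overlap, mCaPS replicate 2 was the nearest to KO, and reads shared between globin genes of the cluster cannot be assigned with certainty. Angpt1, a ligand of Tek, was among the 15 most raised genes (6.76 ± 0.66). Without pairs 1, 2 and 3, 5, 12 and 4 members rose. The fit of 36 libraries called 5, and a blocked fit of the 12 libraries of day 6 called 1.

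Endoderm genes rose in 13 of 20 cases and 1, Cxcr4, fell (-1.74 ± 0.35, median of the list 1.00). In all, 70% passed, against 23.3% of all genes tested. The summed level of the list was 1580 to 1740 CPM in mCaPS, 858 to 1080 CPM in KO and 1230 to 1650 CPM in WT. WT thus overlapped mCaPS here, and every KO library lay below WT. Gata6, a factor of endoderm and heart, had 173, 100 and 262 CPM in mCaPS against 7.40, 10.8 and 15.1 CPM in KO, groups that did not overlap (3.94 ± 0.29, adjusted p = 0.00427). Apob, an apolipoprotein of yolk sac and liver, had 150, 78.6 and 153 CPM against 1.92, 6.82 and 9.24 CPM (4.50 ± 0.64, adjusted p = 0.0187). Ttr (5.61 ± 0.47), Apoa1 (4.69 ± 0.81), Hnf4a (3.97 ± 0.47), Afp (2.80 ± 0.29) and Foxa2 (1.86 ± 0.13) rose, as did Sox7 (1.12 ± 0.16) and Dab2 (0.61 ± 0.16) of extraembryonic endoderm. The adhesion and junction genes Epcam (0.84 ± 0.14) and Cldn6 (1.03 ± 0.22), which many epithelia express, rose too. Col4a1, called higher at 0.31 ± 0.09, lies on chromosome 8, and its call was lost in 8 of the 16 alternatives. With pairs 1, 2 and 3 left out, 7, 10 and 3 members rose, without the block 9 did, and in the fit of 36 libraries 4.

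Simple epithelial and trophoblast genes rose in 9 of 13 cases (69.2%, against 12.2% of all genes tested) with none lower (median 1.21). Krt8 and Krt18, the paired keratins of simple epithelia, had 273 to 341 CPM and 462 to 503 CPM in mCaPS against 38.0 to 64.2 CPM and 84.3 to 151 CPM in KO (2.52 ± 0.23 and 2.05 ± 0.18, adjusted p = 0.00588 and 0.00427). Here mCaPS replicate 2 did not stand apart from the other mCaPS libraries. Cdx2, a caudal factor of trophoblast and posterior embryo, had 10.7, 5.21 and 5.39 CPM against 0.204, 0.209 and 0.506 CPM (4.49 ± 0.48, adjusted p = 0.00495). Gata3 (1.21 ± 0.13), Krt19 (1.44 ± 0.26), Tead4 (0.75 ± 0.15) and Krt7 (0.58 ± 0.15) rose, and Elf5, a factor of trophoblast stem cells, reached at most 0.171 CPM. The placental gene Plac1 was at 0.384 to 4.81 CPM in mCaPS and 0 to 0.0837 CPM in KO. Krt13, the gene with the largest log2 fold change of those named, was at 0.947, 0.854 and 6.54 CPM in mCaPS and at 0, 0 and 0.0422 CPM in KO, too few reads in KO for a fold change to be read. Leaving out pairs 1, 2 and 3 left 5, 9 and 3 members higher, and the fits of 12 and 36 libraries 6 and 3.

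BMP pathway genes rose in 9 of 16 cases (56.2%, against 12.2% of all genes tested) with none lower (median 1.20). Among ligands, Bmp4 had 20, 20.9 and 32.5 CPM in mCaPS against 3.28, 6.80 and 6.35 CPM in KO (2.17 ± 0.21, adjusted p = 0.00401), with no overlap. Bmp2 (1.98 ± 0.17) and Bmp5 (4.19 ± 0.37) rose likewise. Among feedback inhibitors and targets, Bambi (2.67 ± 0.32), Smad6 (1.98 ± 0.39), Smad7 (1.23 ± 0.20), Id1 (1.47 ± 0.22), Id2 (1.24 ± 0.21) and Msx2 rose. Without pairs 1, 2 and 3, 5, 10 and 2 of them rose. The mesenchymal and matrix genes of the fibroblast and feeder list rose in 8 of 16 cases with none lower (median 1.58). This was 50%, against 12.2% of all genes tested. Among them were Col3a1 (144 to 631 CPM in mCaPS and 17.8 to 44.4 CPM in KO, 3.67 ± 0.26), Pdgfra (98.9 to 325 CPM and 3.73 to 13.1 CPM, 4.73 ± 0.38), Pdgfrb (1.83 ± 0.16) and Postn (5.79 ± 0.54). The summed level of the list was 1380 to 3050 CPM in mCaPS and 684 to 1010 CPM in KO. S100a4, Mmp3, Ccl2 and Ccl7, which feeder fibroblasts secrete or hold, were below 1 CPM in all 6 libraries. With pairs 1, 2 and 3 left out, 4, 12 and 3 of these genes rose, and in the fits of 12 and 36 libraries 5 and 3.

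Genes of epithelial to mesenchymal transition on the neural crest list rose: Snai1 (10.8 to 32.4 CPM in mCaPS and 1.43 to 3.48 CPM in KO, 2.92 ± 0.50), Snai2 (2.49 ± 0.17), Twist1 (37.1, 45.6 and 63.5 CPM against 8.22, 15.4 and 18.1 CPM, 1.83 ± 0.14, adjusted p = 0.00218) and Ets1 (1.81 ± 0.22). Sox9 (1.48 ± 0.24), Ngfr (2.41 ± 0.20) and Erbb3 (0.47 ± 0.13) brought the list to 7 of 12 higher. Tfap2b (-3.36 ± 0.70) and Ednrb of the same list fell. In all, 75% of the list passed, against 23.3% of all genes tested. Ednrb, the endothelin receptor of crest and progenitor cells, had 19.8, 28.0 and 22.8 CPM in mCaPS against 134, 105 and 112 CPM in KO, with no overlap (-2.34 ± 0.18, adjusted p = 0.00317). Without pairs 1, 2 and 3, 3, 6 and 4 members rose, and in the fit of 36 libraries 3. Twist2, of dermis and mesenchyme (5.32 ± 0.41), the matrix gene Tnc (5.18 ± 0.58), Wnt2 (6.57 ± 0.55), Asb4 (5.46 ± 0.35) and the kinase gene Alpk2 (6.48 ± 0.33) were among the 15 most raised genes. Grin2c, a glutamate receptor subunit, had 39.6, 7.45 and 34.3 CPM in mCaPS against 0.286, 0.607 and 1.14 CPM in KO (5.12 ± 0.70), and Sphkap had 2.90 to 7.38 CPM against 0.0419 to 0.295 CPM.

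**Figure D3:**
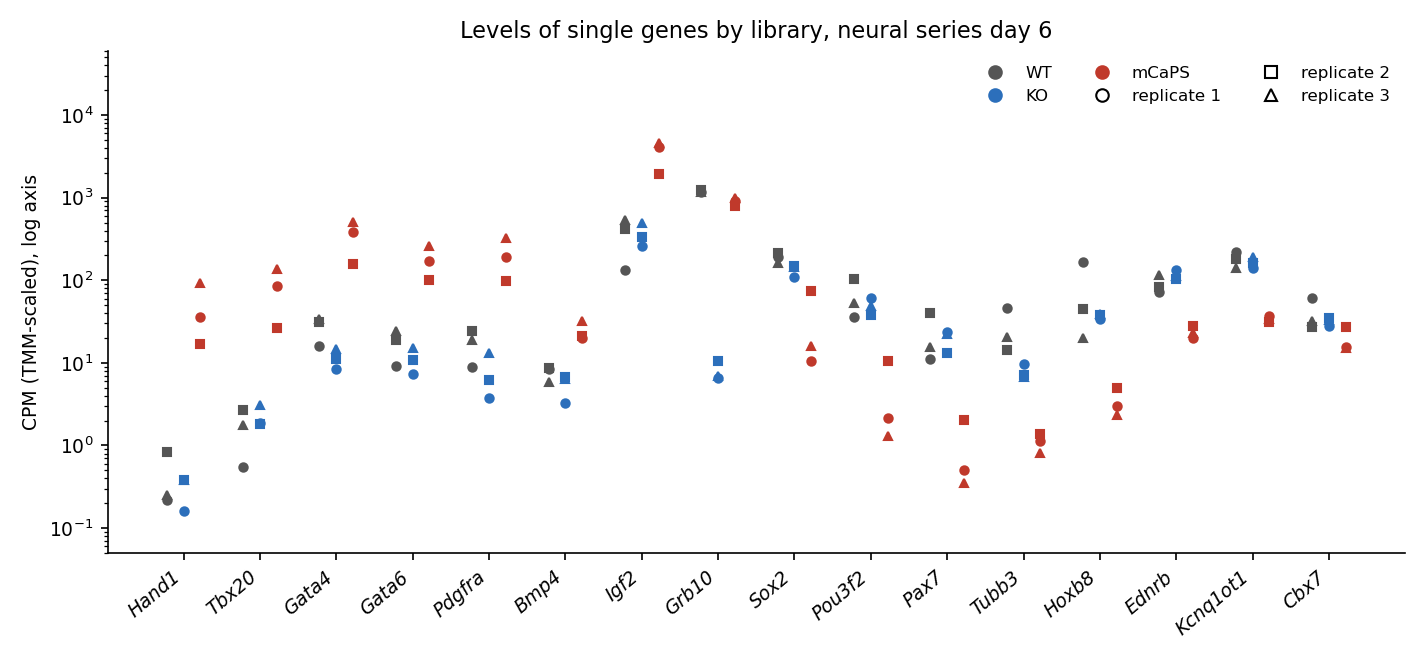
Each point is a library of day 6 (symbol by replicate number), at the CPM of 1 gene on a log axis. Heart, endoderm and mesenchymal genes (left) are above KO and WT in all mCaPS libraries, Grb10 is near 1000 CPM in mCaPS and WT and at 6.65 to 10.4 CPM in KO, and neural and Hox genes (right) are lower in mCaPS.

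HOX genes are the classical targets of Polycomb repression and are switched on in order by retinoic acid. Of 15 genes of paralog groups 1 to 5, 6 fell and 1, Hoxd1, rose (1.20 ± 0.23, median of the list -0.52). Of 17 in groups 6 to 13, 7 fell and none rose (median -0.50). In all, 46.7% and 41.2% of the 2 lists passed, against 23.3% of all genes tested. Hoxb8 had 2.98, 4.91 and 2.34 CPM in mCaPS against 33.9, 37.8 and 39.2 CPM in KO, without overlap (-3.50 ± 0.23, adjusted p = 0.00241). Hoxb5 had 13.4, 16.4 and 7.40 CPM against 62.1, 72.5 and 64.7 CPM (-2.50 ± 0.22, adjusted p = 0.00469). Hoxb6 (-3.06 ± 0.24), Hoxb7 (-1.73 ± 0.23), Hoxb9 (-2.03 ± 0.31), Hoxb3 (-0.91 ± 0.13), Hoxb4 (-0.63 ± 0.10), Hoxc4 (-0.99 ± 0.19), Hoxc5 (-1.62 ± 0.25) and Hoxd4 (-2.69 ± 0.42) fell as well, as did Hoxa6, Hoxc6 and Hoxd13, all below 4 CPM in both lines. WT had 168, 44.4 and 19.8 CPM of Hoxb8, a range that spans the KO libraries and lies above mCaPS. Of the lower calls in groups 1 to 5 and 6 to 13, 1 and 0 were left in a blocked fit of the 12 libraries of day 6, in which Hoxb5, Hoxb6 and Hoxb8 lost their calls too, and 2 and 0 in the fit of 36 libraries. Without pair 1 there were 3 and 2, and without pair 3 2 and 2.

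Retinoic acid genes moved both ways, with 7 of 18 higher and 4 lower (61.1%, against 23.3% of all genes tested). Cyp26b1, an enzyme that degrades retinoic acid, had 586, 201 and 362 CPM in mCaPS against 58.5, 50.5 and 93.2 CPM in KO (2.40 ± 0.33, adjusted p = 0.0171). Dhrs3 (1.34 ± 0.20), which lowers retinaldehyde, Rdh10 (1.58 ± 0.19), which makes it, and the receptors Rara (0.84 ± 0.18), Rarb (0.61 ± 0.11) and Rarg (0.54 ± 0.14) rose. Crabp2, the cytoplasmic carrier of retinoic acid, had 77.3, 319 and 67.0 CPM against 823, 690 and 613 CPM (-2.61 ± 0.57, adjusted p = 0.0439). Stra8 (-2.73 ± 0.51), Stra6 (-1.82 ± 0.30) and Tshz1 (-0.94 ± 0.09) were the other 3 that fell. Without pairs 1, 2 and 3, 2, 7 and 1 members rose and 1, 6 and 1 fell.

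Imprinted genes, expressed from 1 parental allele, rose in 19 of 36 cases and fell in 5 (median 0.59). In all, 66.7% passed, against 23.3% of all genes tested. Grb10 (chromosome 11, 11930499 to 12037420, minus strand), an adaptor that restrains growth factor receptors, had 906, 788 and 996 CPM in mCaPS and 6.65, 10.4 and 6.94 CPM in KO. WT had 1180, 1230 and 1180 CPM, so here the libraries labelled KO stood apart (6.81 ± 0.25, adjusted p = 0.000781). Growth-related genes of the fetus rose: Igf2 had 4150, 1910 and 4650 CPM in mCaPS against 263, 338 and 497 CPM in KO (3.22 ± 0.32), H19 152, 120 and 243 CPM against 12.6, 12.6 and 18.6 CPM (3.50 ± 0.12, adjusted p = 0.000208) and Dlk1 633, 243 and 920 CPM against 19.6, 23.7 and 27.5 CPM (4.48 ± 0.46). For these 3 genes no mCaPS library was as low as a KO library, and WT lay near KO, at a mean of 362 CPM for Igf2. Meg3 (2.30 ± 0.22), Rian (1.93 ± 0.16), Mirg (1.59 ± 0.15) and Rtl1 (1.62 ± 0.16), which share the Dlk1 domain, Peg3 (2.09 ± 0.27), Usp29 (2.36 ± 0.27) and Zim1 (2.15 ± 0.36) of another domain, Igf2r (1.37 ± 0.19) and Cdkn1c (1.33 ± 0.20) rose too.

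Kcnq1ot1 went the other way. This long noncoding RNA of the Kcnq1 domain (chromosome 7, 143213111 to 143296547, minus strand) had 36.9, 31.3 and 34.1 CPM in mCaPS, 142, 160 and 189 CPM in KO and 222, 179 and 139 CPM in WT. The mCaPS libraries were alike and below all others of these lines (-2.27 ± 0.12, adjusted p = 0.000781). Nnat (-1.04 ± 0.19), Nespas (-1.07 ± 0.11) and Impact (-0.62 ± 0.08) fell, and Gab1, the fifth, lies on chromosome 8. Kcnq1ot1, Rtl1, Airn and Nespas overlap genes on the opposite strand, and whether reads were counted by strand is not given in the sources used here, so reads of such partners cannot be told apart. Without pairs 1, 2 and 3, 9, 21 and 3 imprinted genes rose, while Grb10, H19, Rian and Kcnq1ot1 passed in every alternative run.

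Other signalling lists had calls in both directions, in 45.5% of hedgehog, 31.2% of Notch, 27.8% of Wnt, 18.8% of FGF and 58.3% of Nodal pathway genes, against 23.3% of all genes tested. In the hedgehog pathway, the target genes Gli1 (49.3, 47.2 and 33.1 CPM in mCaPS against 7.91, 8.60 and 10.3 CPM in KO, 2.24 ± 0.21, adjusted p = 0.00426) and Ptch1 (396, 291 and 262 CPM against 116, 126 and 130 CPM, 1.32 ± 0.15) rose without overlap. With Foxa2 this made 3 of 11, while the co-receptor Boc (-1.39 ± 0.15) and Gli3 (-0.50 ± 0.08) fell. WT had 24.7 to 49.4 CPM of Gli1, as mCaPS did. In the Notch list, Hey1 (2.85 ± 0.42), Hey2 (2.01 ± 0.44) and Heyl (1.56 ± 0.43), targets also expressed in heart and vessels, rose, and Notch1 and Nrarp (-1.38 ± 0.21) fell, of 16 tested. Of 18 Wnt genes, Rspo3 (2.07 ± 0.48), Lef1 (1.55 ± 0.16) and Sfrp1 rose and Fzd10 (-2.21 ± 0.41) and Sfrp2 (-1.31 ± 0.17) fell. Of 16 FGF genes, Etv5 (0.90 ± 0.11) rose and Fgfr3 (-0.68 ± 0.18) and Fgfr1 fell. Sfrp1 and Fgfr1 lie on chromosome 8. Of 12 Nodal pathway genes, 4 rose, Smad7 among them, and 3 fell, Nodal (-0.98 ± 0.24) and Lefty1 (-1.93 ± 0.46) among them. Over these 5 lists, 5 higher and 2 lower calls were left without pair 1, and 2 higher and 0 lower without pair 3.

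Pluripotency genes passed in 29.2% of the naive and 45.5% of the formative list, against 23.3% of all genes tested. Pou5f1 was at 7.74 to 21.5 CPM in mCaPS and 22.9 to 28.1 CPM in KO (-0.99 ± 0.29, adjusted p = 0.0684). Of 24 naive pluripotency genes 4 fell, Gdf3 (-1.90 ± 0.32), Dppa4 (-1.48 ± 0.24), Nr5a2 (-0.98 ± 0.25) and Klf2 (on chromosome 8), and 3 rose. The higher ones, Tbx3 (50.4 to 122 CPM in mCaPS and 5.45 to 13.9 CPM in KO, 3.20 ± 0.29), Klf4 (1.20 ± 0.23) and Tfcp2l1 (0.77 ± 0.08), are also expressed in heart or epithelia. Only these 3 of the 24 were above 0, and the median of the naive list was -1.14. Its mean log2(CPM + 1) differed by -0.94, -0.04 and -0.86 in pairs 1 to 3. Without pair 2, 17 of the 24 fell, while none fell without pair 1 or 3. Of 11 formative genes 2 rose and 3 fell (median -0.69). Germline genes fell in 8 of 13 cases (61.5%, against 11.1% of all genes tested) with none higher (median -1.38). They were led by Mael (-1.93 ± 0.43), Mov10l1 (-1.89 ± 0.51) and Ddx4 (-1.60 ± 0.36), all below 10 CPM. No germline gene fell without pair 1 or 3 or in the fit of 36 libraries. Of 7 tested genes of the 2-cell stage, Usp17la and Gm5662 fell, both members of families of near copies whose counts are uncertain.

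Of PRC1 genes 25% passed, near the 23.3% of all genes tested, and of PRC2 genes 8.33%. Of 24 PRC1 genes, Bcor (0.97 ± 0.22) and Pcgf5 (0.82 ± 0.12), of variant complexes, rose, and Bmi1 (-0.55 ± 0.12), Kdm2b (-0.48 ± 0.11), Phc1 (-0.39 ± 0.09) and Cbx7 fell (median -0.04). None of these 6 passed without pair 1 or without pair 3. Of 12 PRC2 genes, Rbbp7, a histone chaperone that is also in other complexes, had 755, 656 and 792 CPM in mCaPS against 281, 281 and 259 CPM in KO, without overlap (1.41 ± 0.10, adjusted p = 0.00193). Ezh2, Eed and Suz12, the core of PRC2, did not pass. Among 9 genes of DNA methylation, of which 22.2% passed, Dnmt3a rose (0.76 ± 0.18) and Dnmt3l fell (-1.38 ± 0.32).

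Calls were made for 15% of cell cycle, 29.4% of CDK inhibitor and p53 target, 26.7% of hypoxia and 25% of immediate early genes. They were made for 18.2% of interferon and 46.2% of protocadherin genes. Apart from the protocadherins, these shares lay near or below the 23.3% of all genes tested. Of 20 cell cycle genes 3 fell, Ccne1 (-0.82 ± 0.13), Pcna (-0.53 ± 0.08) and Mcm5, which lies on chromosome 8. Of 17 CDK inhibitor and p53 target genes, Cdkn1c and Cdkn1b (0.67 ± 0.16) rose and Zmat3 (-0.54 ± 0.10), Ccng1 (-0.50 ± 0.12) and Sesn2 (-0.45 ± 0.09) fell. Of 15 hypoxia genes 4 rose, P4ha1 (1.23 ± 0.12), Vegfa (0.61 ± 0.14), Adm (1.92 ± 0.45) and Ndrg1 (1.39 ± 0.30). Of 16 immediate early genes, Jun (0.74 ± 0.16), Klf6 (0.74 ± 0.09) and Zfp36 (0.80 ± 0.20) rose and Egr1 fell (-0.64 ± 0.12). Of 11 interferon genes, Usp18 rose (2.81 ± 0.44) and Bst2, on chromosome 8, fell. Clustered protocadherins rose in 6 of 13 cases, Pcdhb19 (1.64 ± 0.34) the most, though members of a cluster share exons or sequence and their counts are uncertain. In each of these lists at most 1 gene stayed called in either direction without pair 1, and none without pair 3.

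Chromosome 8 genes were lower in mCaPS as a body. The median log2 fold change of its 848 tested genes was -0.50, with -0.51, -0.50 and -0.53 in pairs 1 to 3, and 85.6% of them were below 0. Medians of the other autosomes and X lay between -0.04 and 0.08. In windows of 20 Mb along chromosome 8 the median was between -0.60 and -0.40, and no window was spared. Chromosome 8 took 4.43% ± 0.0608 (SD, n = 3) of the counts outside Rn45s in mCaPS and 6.20% ± 0.0208 (SD, n = 3) in KO, without overlap (two-sided exact permutation test, p = 0.1, the smallest that 3 against 3 libraries allow). WT libraries of day 6 had 4.50% to 5.51% and CaPS libraries 4.39% to 4.52%. The share was also 6.16% to 6.33% in KO on day 0 and 6.04% to 6.39% on day 8, against 4.43% to 4.48% and 4.30% to 4.50% in mCaPS. DNA was not measured, so the copy number of chromosome 8 was not tested. Which calls on this chromosome follow the genotype and which follow the shift of the whole chromosome cannot be told apart.

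**Figure D4:**
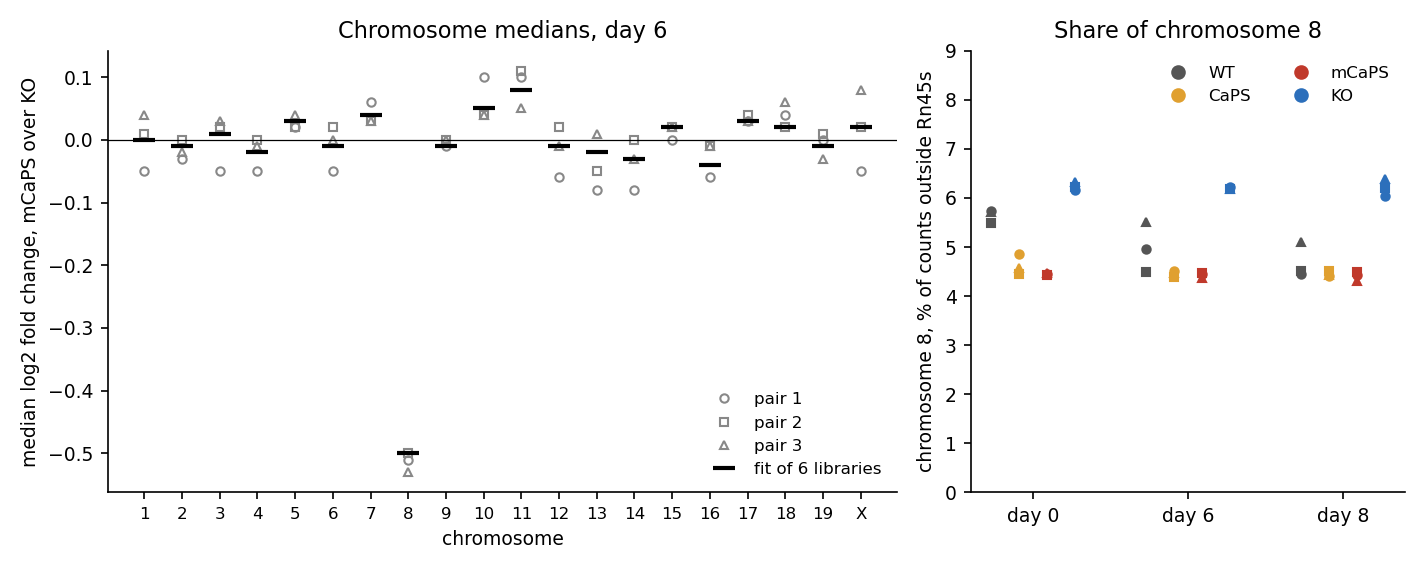
Left, the median log2 fold change of mCaPS over KO on each chromosome, per pair (open symbols) and in the fit of 6 libraries (bars). Right, the percent of a library's counts outside Rn45s on chromosome 8 by line and day, each point a library. Chromosome 8 lies at -0.50 and the others between -0.04 and 0.08, and KO libraries have 6.04% to 6.39% on all days.

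Of the 5 highest and 5 lowest genes called on chromosome 8, Hand2 is on the cardiac list and Tubb3 on the neuronal list, and the others are on none. Foxf1, a forkhead factor of lateral mesoderm, had 112, 37.7 and 80.0 CPM in mCaPS against 3.39, 5.61 and 7.44 CPM in KO (3.70 ± 0.52, adjusted p = 0.0182). Hand2, the heart and limb partner of Hand1, had 16.4, 8.20 and 36.7 CPM against 0.612, 1.21 and 1.77 CPM (3.94 ± 0.43, adjusted p = 0.00811). Both were above KO in every mCaPS library. The heart kinase Mylk3 (4.83 ± 0.54), the steroid enzyme Hsd11b2 (3.68 ± 0.36) and the adaptor Dok4 (3.02 ± 0.49) completed the 5 highest. Tubb3, the neuronal tubulin, had 1.13, 1.37 and 0.814 CPM against 9.57, 7.08 and 6.66 CPM, with 14.5 to 46.7 CPM in WT (-2.83 ± 0.25, adjusted p = 0.00315). Irf8, a myeloid factor, had 3.28, 5.14 and 1.83 CPM against 23.6, 21.2 and 20.1 CPM (-2.77 ± 0.29, adjusted p = 0.00596). The protease gene Tll1 (-2.89 ± 0.29), the proteoglycan gene Ncan of neural tissue (-2.42 ± 0.45) and BC030500 (-2.52 ± 0.55) were the other 3 of the lowest 5. Without pairs 1, 2 and 3, 106, 410 and 7 genes of chromosome 8 fell.

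The Y chromosome also set the lines apart. Uty had 25.9 to 29.5 CPM in mCaPS and 2.0 to 2.95 CPM in KO (3.47 ± 0.18), Ddx3y 25.2 to 29.6 CPM against 2.24 to 2.69 CPM (3.48 ± 0.13) and Eif2s3y 37.1 to 41.2 CPM against 3.75 to 4.12 CPM (3.33 ± 0.11). WT was at 25.5 to 44.7 CPM for these genes, so the libraries labelled KO were the low ones. Summed Y counts were 8.96 to 9.12 CPM in KO on day 6 and 90.7 to 102 CPM in mCaPS, and KO was at 6.25 to 8.20 CPM on day 0. On day 8 KO was at 10.6 to 15.3 CPM and mCaPS at 94.6 to 136 CPM.

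Few of the genes called on day 6 outside chromosome 8 passed on day 0, and more than 1000 of them passed on day 8. Fits of these days used the 18 libraries of both lines, with 17167 genes tested. On day 0, 356 genes (2.07%) passed, 89 higher and 267 lower, and on day 8 4347 (25.3%), 2114 higher and 2233 lower. Of the 1908 genes that rose on day 6 outside chromosome 8, 25 passed in the same direction on day 0 and 1071 on day 8. The same sign was seen in 60.6% on day 0 and 92.2% on day 8. Of the 1339 that fell, 12 and 710 passed in the same direction, with 53.2% and 90.1% of the same sign. Few passes on day 0 do not by themselves show a change between days. Tested directly, the difference on day 6 differed from that on day 0 in 499 of the 1908 and 350 of the 1339. That test shares the day 6 libraries with the calls. The 436 lower genes of chromosome 8 differed from both sets: 97.7% were below 0 on day 0 and on day 8, and 175 and 338 passed. The difference on day 6 differed from that on day 0 in 1029 genes (5.99%), 573 upward (3.34%) and 456 downward (2.66%), and the difference on day 8 differed from that on day 6 in 164 (0.955%), 40 upward (0.233%) and 124 downward (0.722%) (edgeR's quasi-likelihood test of the interaction, adjusted p below 0.05). These counts depend on single pairs: leaving out 1 pair gave 19 to 362 upward and 1 to 359 downward between days 0 and 6, the fewest without pair 1, and 0 to 120 upward and 0 to 199 downward between days 6 and 8.

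On day 8, 16 of 20 neural progenitor genes and 22 of 24 neuronal genes were lower in mCaPS, with medians of -1.77 and -3.19. Map2 differed by -1.28 on day 6 and -3.07 on day 8, a change that passed the test (adjusted p = 0.00360), as it did for Hoxb9 (-2.03 and -4.70, adjusted p = 0.0124). Of the cardiac list, 12 members were higher on day 8, with a median of 2.30, but Hand1 and Tnnc1, called on day 6, did not pass (adjusted p = 0.0506 and 0.419). Nr5a2 differed by -0.98 on day 6 and 1.13 on day 8, with an adjusted p of 0.00899 for the change between days. Grb10 differed already on day 0 (54.4 to 109 CPM in KO and 206 to 393 CPM in mCaPS, 1.80, adjusted p = 0.00905), and Kcnq1ot1 by similar amounts on all days (-2.39, -2.27 and -2.30).

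**Figure D5:**
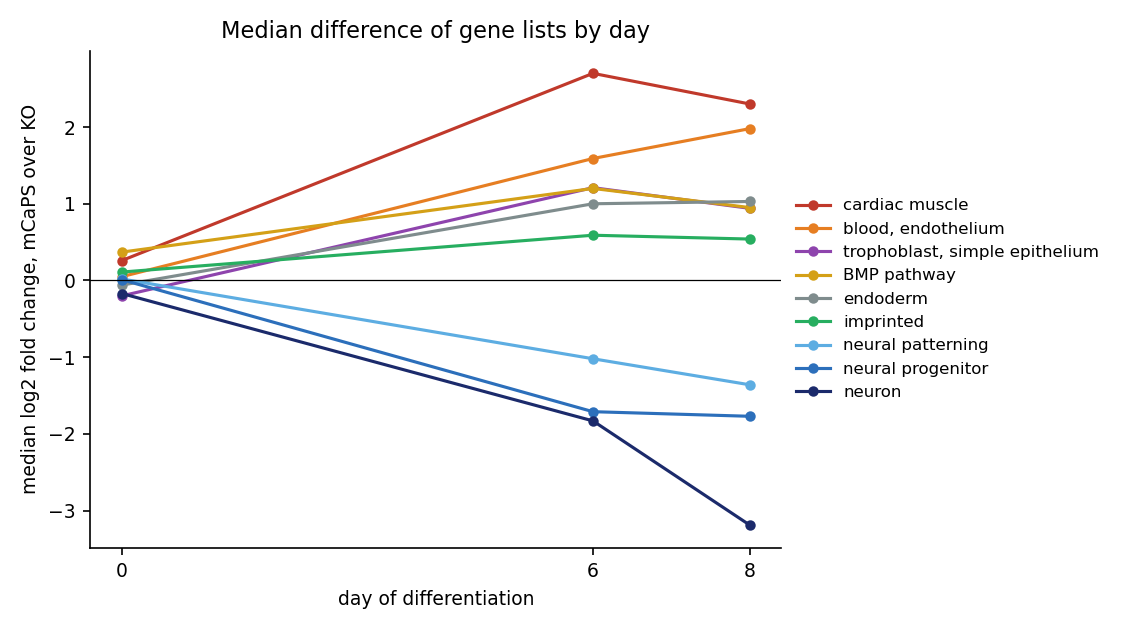
Lines join the median log2 fold change of mCaPS over KO of 9 gene lists on days 0, 6 and 8 of neural differentiation (day 6 from the fit of 6 libraries, days 0 and 8 from that of 18). On day 0 the medians lie between -0.20 and 0.37. On day 6 the neural lists lie below 0 and the mesodermal, endodermal and epithelial lists above, with neuronal genes at -1.83 on day 6 and -3.19 on day 8.

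WT lay nearer to KO than to mCaPS for most of these genes. On log2(mean CPM + 2), WT was nearer to KO for 1620 of the 1904 genes that rose outside chromosomes 8 and Y (85.1%) and for 1097 of the 1339 that fell (81.9%). For the 436 lower genes of chromosome 8 the balance was other, with WT nearer to KO for 173 (39.7%). CaPS, which carries the unmutated domain, was nearer to mCaPS for 1557 of the 1904 and 850 of the 1339. Its replicate 1, however, was at a mean log2(CPM + 1) of 4.90 for neural progenitor genes, as KO was, against 3.52 and 4.14 in replicates 2 and 3. These positions are descriptions without a test.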

How the data were processed

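RNA of 36 neural libraries (WT, CBX7-CaPS, CBX7-mCaPS and CBX7 KO on days 0, 6 and 8) was deposited by the authors as a table of raw read counts for 24984 genes. The submitters' processing notes name cutadapt 1.14, STAR 2.7.0, featureCounts 1.6.3, edgeR, HOMER 4.10.4 and mm10. Among counts of 1 to 20, 77.7% to 82.8% were even in the 6 libraries compared, as where both ends of a fragment are counted, so counts were also halved as an alternative.

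Groups and replicate numbers came from the titles. Genes passing edgeR's filterByExpr were tested in R 4.3.3 with edgeR 4.0.16 (TMM, quasi-likelihood test, replicate number as block, 2 residual degrees of freedom, Benjamini-Hochberg adjustment over 15964 genes). Standard errors were derived from the F statistic. Other days and interactions came from a blocked fit of 18 libraries. Promoters came from RefSeq tables. On simulated data (15632 genes tested), 64 of 100 genes changed by log2 1 and 81 of 94 changed by log2 2 were recovered, with 27 false calls. Beside the 64 and 81 recovered genes, the 27 false calls were a larger share than an adjusted p of 0.05 aims at. The simulated run therefore does not show that the calls made here keep to that share.

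The pairing comes from the replicate numbers. Same-numbered libraries deviated together (r 0.15 to 0.19, against -0.13 to -0.02 for other numbers, across genes, which are not independent replicates). Deviations were taken from the mean of each line, so positive values for equal numbers push the others below 0. The contrast between them is thus no separate evidence for the pairing. No 2 of the 6 libraries held identical values (15 pairs). Named genes were Cbx7, Cbx2, the 15 highest and 15 lowest called genes outside chromosome 8 (at least 1 CPM, same sign in 3 pairs, no predicted models), the 5 and 5 of chromosome 8, and called members of 33 gene lists. The comparison, its lists and its rules were chosen with earlier results of these data known. Over all lists, 516 of 565 genes were tested and 131 rose and 96 fell (44.0%). Alternatives were no block, other sets of libraries, DESeq2 1.42.0, limma voom (3.58.1), other scalings and filters, halved counts, another prior count and leaving out each pair. Some genes that the rule would name are not reported here.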

Additional observations from a re-analysis of the deposited data

Results flagged for a closer look

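These results passed a test of whether the log2 fold change of mCaPS over KO differed between days of differentiation (edgeR's quasi-likelihood test of the interaction in the fit of 18 libraries, Benjamini-Hochberg adjustment over 17167 genes). The change differed between day 6 and day 0 in 1029 genes and between day 8 and day 6 in 164. Of the 238 genes named with values above, 116 passed for day 6 against day 0 and 9 for day 8 against day 6, the largest adjusted p being 0.0498 and 0.0457. Most of these genes were named because they were called on day 6, and both tests use the same day 6 libraries. The share of named genes that passed is raised by that choice and cannot be set against the share over all genes. No group had 4 or more libraries, so single libraries were not tested as outliers.

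The log2 fold change on day 6 minus that on day 0 was above 0 for 72 named genes. In either direction 5.99% of all genes tested passed. Of the lists, 9 of 20 cardiac, 6 of 20 endoderm, 5 of 16 BMP and 7 of 16 blood and endothelial genes did. So did 6 of 12 neural crest, 12 of 36 imprinted, 7 of 20 neural progenitor and 7 of 24 neuronal genes, but 0 of 24 PRC1 and 0 of 16 FGF genes. The difference between days was 8.52 for Hbb-y, 7.01 for Krt13, 6.98 for Alpk2, 6.30 for Hand1, 6.17 for Tbx5, 6.01 for Angpt1, 5.74 for Gata4, 5.68 for Apoa1 and 5.44 for Postn. This amounted to 5.43 for Grin2c, 5.02 for Grb10, 4.92 for Asb4, 4.78 for Twist2, 4.75 for Tbx20, 4.74 for Hnf4a, 4.69 for Pdgfra, 4.53 for Tnc and 4.26 for Foxf1. The amount was 4.12 for Myl7, 4.11 for Gata6, 4.04 for Hand2, 4.02 for Sphkap, 4.01 for Apob, 4.01 for Igf2, 3.88 for Tnni1, 3.83 for Dlk1 and 3.63 for Hsd11b2. Next came 3.57 for Myl4, 3.50 for Tbx3, 3.49 for Col3a1, 3.48 for Cdx2, 3.34 for Tnnt2, 3.23 for Dok4, 3.14 for Snai2, 3.11 for Cdh5 and 2.79 for Bambi. Then followed 2.78 for Bmp5, 2.75 for Gli1, 2.75 for Sfrp1, 2.66 for Tek, 2.61 for Hey1, 2.61 for Krt8, 2.56 for Gata3, 2.55 for Adm and 2.53 for H19. Further genes had 2.44 for Gata2, 2.44 for Usp29, 2.43 for Snai1, 2.42 for Kdr, 2.30 for Hoxd1, 2.26 for Krt18, 2.19 for Ngfr, 2.13 for Foxa2 and 2.04 for Smad6. It was 2.00 for Meg3, 1.93 for Ets1, 1.90 for Zim1, 1.85 for Id2, 1.79 for Pdgfrb, 1.77 for Rian, 1.72 for Peg3, 1.70 for Bmp4 and 1.64 for Pecam1. This amounted to 1.58 for Twist1, 1.53 for Esam, 1.53 for P4ha1, 1.46 for Igf2r, 1.46 for Ptch1, 1.26 for Rbbp7, 1.14 for Rdh10, 0.96 for Rara and 0.80 for Klf6. The values for Krt13, Hbb-y, Hand1, Sphkap and other genes near or below 1 CPM in at least 1 group rest on few reads there, depend on the prior count and are no bound.

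It was below 0 for 44 named genes. The values were -6.17 for Mir124-2hg, -6.13 for Pantr1, -5.48 for Hk3, -5.36 for Miat, -5.14 for Dbx1, -4.36 for Zfp536, -4.22 for Fez1, -4.17 for Hoxb6 and -4.02 for Sox2ot. Further values were -4.01 for Hoxb8, -3.89 for Neurog1, -3.65 for Pax2, -3.52 for Nhlh1, -3.50 for Cdk5r2, -3.14 for Crabp2, -3.03 for Ina, -3.00 for Neurod1 and -2.80 for T. Smaller ones were -2.76 for Ednrb, -2.58 for Tll1, -2.55 for Fzd10, -2.54 for Sox2, -2.54 for Irf8, -2.49 for Tubb3, -2.48 for Gm5662, -2.39 for Ncan and -2.37 for Nefm. Others were -2.35 for Mael, -2.16 for Hoxb9, -1.97 for Lefty1, -1.90 for Nes, -1.63 for Dnmt3l, -1.61 for Gdf3, -1.58 for Hoxb3, -1.5 for Sfrp2 and -1.43 for Hoxb4. The values were -1.40 for Dppa4, -1.32 for Map2, -1.31 for Ccne1, -1.28 for Hoxb7, -1.25 for Cdh2, -1.17 for Nodal, -1.16 for Msi1 and -1.07 for Tshz1. T was below 1 CPM in all 6 libraries of day 6, so its value too rests on few reads there. The same holds for other genes near or below 1 CPM in a line, such as Neurog1 in mCaPS.

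The log2 fold change on day 8 minus that on day 6 was 2.44 for Gdf3, 2.11 for Nr5a2, -1.39 for Hoxb7, -1.79 for Map2, -1.82 for Elavl4, -2.10 for Sox9, -2.69 for Hoxb9, -3.08 for Cyp26b1 and -3.23 for Dcx. Cyp26b1 and Sox9, higher in mCaPS on day 6, were among those that moved down. Leaving out 1 pair moved these totals as given above for the pairs.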

How the results depend on the processing

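With no replicate block, 3571 genes passed, 3175 of them called with it, and 43 of the named genes lost their call. The totals of day 6 moved little without the block, while those of the changes between days fell, as given below. No result reversed. DESeq2 called 4427 genes, limma voom 4204, and the other scalings, filters, halved counts and prior count 3538 to 3821. Scaling on genes outside chromosome 8 put the median of chromosome 8 at -0.52. A fit of 36 libraries without the block called 430 higher and 162 lower genes outside chromosome 8, 10 and 130 on it, 58 and 13 list members, and gave a median of -0.47. A blocked fit of the 12 libraries of day 6 called 918 and 426, 9 and 289, and 78 and 33. Leaving out 1 pair gave 110 to 2467 higher and 19 to 1877 lower genes outside chromosome 8, 2 to 48 and 7 to 410 on it, 27 to 149 and 8 to 152 list members, and a median of -0.51 to -0.48. The change between days 0 and 6 had 108 upward and 22 downward genes without the block and 19 to 362 and 1 to 359 with a pair left out. Between days 6 and 8 these were 3 and 5, and 0 to 120 and 0 to 199. The cause of these shifts was not tested, and the fits that leave out a pair also hold fewer libraries. Of 259 called named genes, 74 passed in every alternative other than leaving out a pair. Of the 226 called genes named in the text, 18 kept their call in every alternative that tested them. Without pair 1, 139 of the 226 lost their call, and without pair 3, 188 did. With 2 residual degrees of freedom and a common dispersion of 0.0333, changes of genes below about 1 CPM are the least certain.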
